A study of Homo sapiens with 3 samples.

Results

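CEMIP, a gene of hyaluronan breakdown on chromosome 15 from 80779370 to 80951771 (hg38), held 40 of the 21031 peaks in an eCLIP list of mouse PXR from human LS174T cells. Its members here are the peaks whose centre lies in the RefSeq span of the gene, 172402 bases long. CEMIP was chosen because it held the highest number of peaks. That number, its rank and the values of the peaks are therefore a description, and none of them was tested. GPHN, for the scaffold protein gephyrin, came next with 31 peaks.

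In eCLIP, RNA is crosslinked to protein by UV light, the protein is precipitated and the RNA fragments that come with it are sequenced. PXR, a nuclear receptor, is best known for switching on drug metabolism genes when it binds drugs or bile acids. LS174T is an established line from a human colon adenocarcinoma, and all libraries came from cells that had received HA-tagged mouse Pxr 24 h earlier and were irradiated at 254 nm with 400 mJ/cm2. The groups were the mouse PXR immunoprecipitate, with 2 libraries, and the input, with 1 library. The receptor was thus a transfected mouse protein in a human line, and cells without the construct were not analysed here. All values come from 1 list of peaks named for the immunoprecipitate, with no column for a single library or for the input. The values below thus come without replicate error, and the immunoprecipitate could not be set against the input.

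Hyaluronan is a long sugar polymer of the extracellular matrix. It is made at the cell membrane by the HAS synthases, held by receptors such as CD44, and cut by hyaluronidases and with the help of CEMIP. CEMIP, also called KIAA1199 or HYBID, binds hyaluronan, and its RNA is known to be raised in many colorectal tumours. CEMIP2 is a membrane protein of related sequence.

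Each peak has a position, a strand and a fold, which is the authors' ratio of the reads under the summit, the highest point of the peak, to a background. The whole number of reads under each summit and the background were worked out from the peak's fold and −log10 p. For every CEMIP peak the background was the reads of the same strand in the 10 kb around the summit, scaled to 200 bases. This background is a second readout of the gene: it gives the density of reads around each peak, the reads of the peak included. Intervals of reads are exact Poisson intervals at 95% and cover counting error only, since PCR copies are not independent molecules. In bulk cells, more RNA per cell, more cells with the RNA and more crosslinking of the RNA cannot be told apart.

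The list carried the marker genes of its labelled tissue. Of 20 colon epithelial markers 18 held a peak, against 41.6% of all coding genes (8329 of 20037). The keratin gene KRT8 had 1147 reads under its deepest summit, the junction gene CLDN7 had 338 and the keratin gene KRT19 had 288. KRT18, another keratin gene, had 721 in a peak that also lies in KRT8. KRT20 and the goblet cell regulator SPDEF held no peak. Of 14 markers of connective tissue, vessels, blood and liver, COL1A2 alone held a peak, with 10 reads.

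All 40 CEMIP peaks lay on the plus strand, the strand that RefSeq gives the gene, and none on the minus strand. Among the 13970 peaks that lay in a single coding gene of known strand, 98.4% were on the strand of their gene (Wilson interval 98.2 to 98.6%). The CEMIP peaks are thus on the strand of its RNA, as nearly all peaks of coding genes were. Their centres lay in no other gene for 37 of the 40. Together they covered 15052 bases, or 8.73% of the span, and their summits held 4143 reads. That sum ranked 7 among the 8329 coding genes with a peak and made up 0.509% of all summit reads on chromosomes 1 to 22, X and Y.

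The peak at the start of CEMIP began at base 38 of the gene. RefSeq's table of start windows (GRCh38.p14) gives 250 bases before and 50 bases after the start of a gene. The windows of CEMIP and, for comparison, of CD44, a hyaluronan receptor, and of MYH9, a nonmuscle myosin gene with many peaks, are shown because a peak on the strand of the gene reaches into each. They are written 5′ to 3′, and capitals mark the bases under the peak. The CEMIP window is chr15:80779120-80779419 on the plus strand, the CD44 window chr11:35138921-35139220 on the plus strand and the MYH9 window chr22:36387918-36388217 on the minus strand.
CEMIP: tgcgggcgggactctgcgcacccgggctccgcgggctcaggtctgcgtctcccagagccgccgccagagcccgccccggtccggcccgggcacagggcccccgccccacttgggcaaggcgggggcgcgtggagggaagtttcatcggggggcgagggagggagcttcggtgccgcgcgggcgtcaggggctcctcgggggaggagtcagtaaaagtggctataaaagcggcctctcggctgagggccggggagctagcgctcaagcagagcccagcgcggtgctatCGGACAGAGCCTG
CD44: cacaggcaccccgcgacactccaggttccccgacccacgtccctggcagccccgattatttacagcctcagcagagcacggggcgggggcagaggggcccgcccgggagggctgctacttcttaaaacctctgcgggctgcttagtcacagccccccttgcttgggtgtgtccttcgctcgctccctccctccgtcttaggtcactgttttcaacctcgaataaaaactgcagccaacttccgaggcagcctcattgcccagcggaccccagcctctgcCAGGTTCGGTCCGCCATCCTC
MYH9: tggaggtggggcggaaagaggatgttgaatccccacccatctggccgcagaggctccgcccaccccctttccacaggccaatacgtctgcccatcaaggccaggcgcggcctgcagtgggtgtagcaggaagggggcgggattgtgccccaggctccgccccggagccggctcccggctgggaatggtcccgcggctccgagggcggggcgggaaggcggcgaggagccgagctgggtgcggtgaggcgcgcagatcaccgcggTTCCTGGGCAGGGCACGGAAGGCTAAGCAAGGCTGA
Counting the first base of the gene as 1, the peak began at base 38 in CEMIP, at base 30 in CD44 and at base 15 in MYH9. In all 3 genes the window upstream of the start was therefore outside the peak. A start window overlapped by a peak of the gene's strand was found for 46.2% of the coding genes with 10 or more peaks that have a window (43 of 93), for 21.2% of those with any peak (1465 of 6924) and for 9.41% of all coding genes with a window (1491 of 15843). CEMIP shares this feature with many genes of the list.

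The CEMIP window was rich in G and C, which made up 73.0% of its bases, against a median of 58.7% over all 35116 windows. A TATA box sequence, TATAAA, lay once in it on the plus strand, with its first base 30 bases before the start, and 11.5% of all windows hold this sequence on either strand. The Sp1-type sequence GGGCGG occurred once on the plus strand and 2 times on the minus strand, and 45.0% of windows hold it. Neither AGGTCA nor AGTTCA, the 6-base sites that nuclear receptors such as PXR are known to bind in DNA, was found on either strand, nor was the AP-1 sequence TGAGTCA. Of all windows, 13.8% hold AGGTCA, 10.4% hold AGTTCA and 4.95% hold TGAGTCA. These are matches of letters only.

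The deepest CEMIP peak was this one at the start of the gene. It ran from 80779407 to 80781181, 1775 bases, and its summit lay 0.199 kb from the gene start. The summit held 307 reads (Poisson interval 274 to 343) at a fold of 8.45, the highest fold in the gene. Its −log10 q was 167, against a median of 14.2 over the 40 peaks. The 10 kb around it held 1773 reads, of which 17.3% lay under the summit, although part of that window lies before the gene.

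The peak with the next highest depth lay at the other end. It ran from 80948889 to 80951202 and was the widest of the gene, at 2314 bases. It ended 569 bases before the annotated end of CEMIP and held 205 reads (178 to 235) at a fold of 5.01. Its centre also lies in MESD, the gene of a chaperone for lipoprotein receptors, whose span overlaps the last 5483 bases of CEMIP. RefSeq puts MESD on the minus strand, and the peak was on the plus strand. MESD held 2 further peaks, both on the minus strand and outside CEMIP, with 33 and 25 reads. The wide peak is thus on the strand of CEMIP, and the minus-strand peaks are on that of MESD. A deepest peak in the first 10% of the gene and a next deepest in the last 10%, or the reverse, was found in 17 of the 93 genes with 10 or more peaks and a known strand, CEMIP included.

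**Figure D1:**
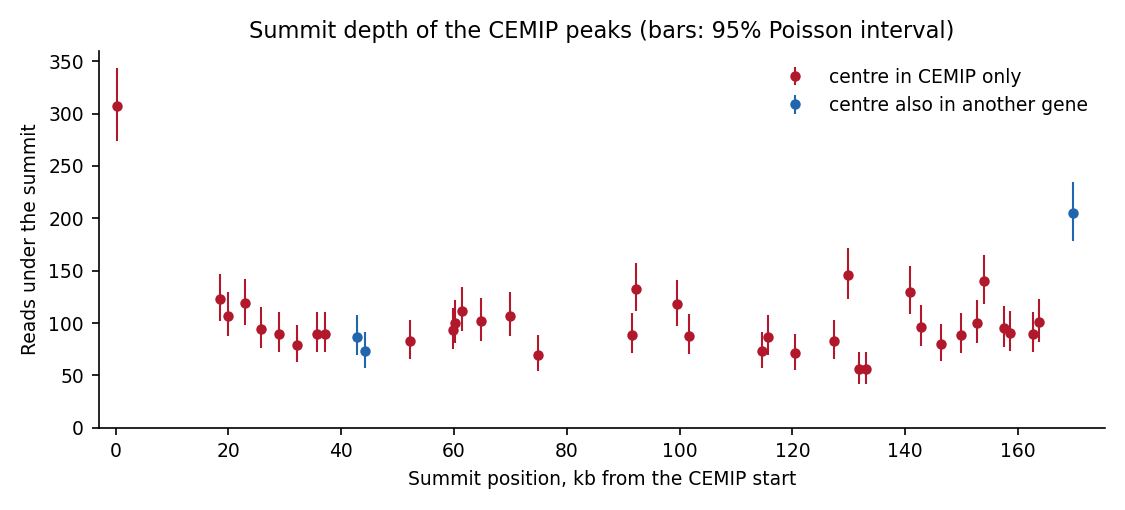
Reads under the summit of each CEMIP peak (points, with 95% Poisson intervals as bars) against the position of the summit in kb from the gene start. The first summit, at 307 reads, and the last, at 205, stand above the 38 summits between them, which lie between 56 and 146 reads.

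Between the ends lay 38 peaks of lower depth. Their summits held 56 to 146 reads, with a median of 90.5 and quartiles of 84.0 and 105.75. The deepest of them, at 80909126 to 80909408, had 146 reads (123 to 172), followed by 140 reads (118 to 165) at 80933262 to 80933587. The shallowest were at 80911065 to 80911265 and 80912324 to 80912540, with 56 reads each. The interval of the deepest inner summit does not reach the 205 reads of the last peak, and that of the last peak does not reach the 307 of the first. The 5 deepest of the 40 summits, which include the first and the last, held 22.5% of the summed summit reads.

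Most of the inner peaks were narrow. The median width of all 40 was 244.5 bases, with quartiles of 214 and 323.75, and 6 were at most 202 bases wide, close to the 200 bases of the narrowest peak in the list. Only 4 were wider than 500 bases. These were the first and the last peak, the peak of 900 bases at 80871543 to 80872442 with 133 reads, and the peak of 585 bases at 80821786 to 80822370 with 87 reads at a fold of 2.11. The last of these and its neighbour at 80823447 to 80823668 had their centres in LOC124903539 as well, a lncRNA gene inside CEMIP whose strand is not given in the tables used here. That neighbour had 73 reads and a fold of 1.85, the lowest in CEMIP. Whether their reads come from RNA of that gene was not tested.

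Neighbouring summits lay a median of 3247 bases apart, from 440 to 18290 bases, with quartiles of 1493.5 and 5427 bases over the 39 gaps. In 3 places the gap was over 10 kb. The longest followed the first peak, with no peak over 16504 bases. Another 16201 bases without a peak lay between summits at 74.9 and 91.6 kb from the start, and 12720 bases between 101.7 and 114.7 kb. The microRNA gene MIR549A lies inside CEMIP from 80841978 to 80842073, on the minus strand in RefSeq's microRNA table. No peak overlapped it, and the nearest CEMIP peaks ended 1012 bases before it and began 1992 bases after it.

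Reads were dense in the 10 kb around every CEMIP summit. These counts take in the peaks and the bases between them, so the density between peaks has no value of its own. The 10 kb around a CEMIP summit held between 986 and 2316 reads, with a median of 1674, and 39 of the 40 windows held 1000 or more. Taking from the start only summits at least 10 kb apart left 13 windows that do not overlap. They held 21248 reads in all, a mean of 1634 per window. In the 3 gaps of over 10 kb, the bases more than 5 kb from a summit have no density value. For peaks of other coding genes the median was 127 reads in 10 kb, with quartiles of 65.0 and 254.

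The density was higher toward the start of the gene. Before the midpoint of the span, 18 summits had 1627 to 2316 reads around them, with a median of 1998. Beyond the midpoint, 22 summits had 986 to 2004, with a median of 1281.5. The ranges overlap through the last peak, with 2004 reads, and through the pair of peaks 91.6 and 92.4 kb from the start, with 1900 and 1944. Between the peak at 92.4 kb and the next, at 99.5 kb, the count fell to 1325 reads (interval 1255 to 1398), against 1944 (1859 to 2032) at 92.4 kb. From there to the last inner peak it stayed between 986 and 1400. Windows of neighbouring summits share reads, so they are not separate measurements.

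**Figure D2:**
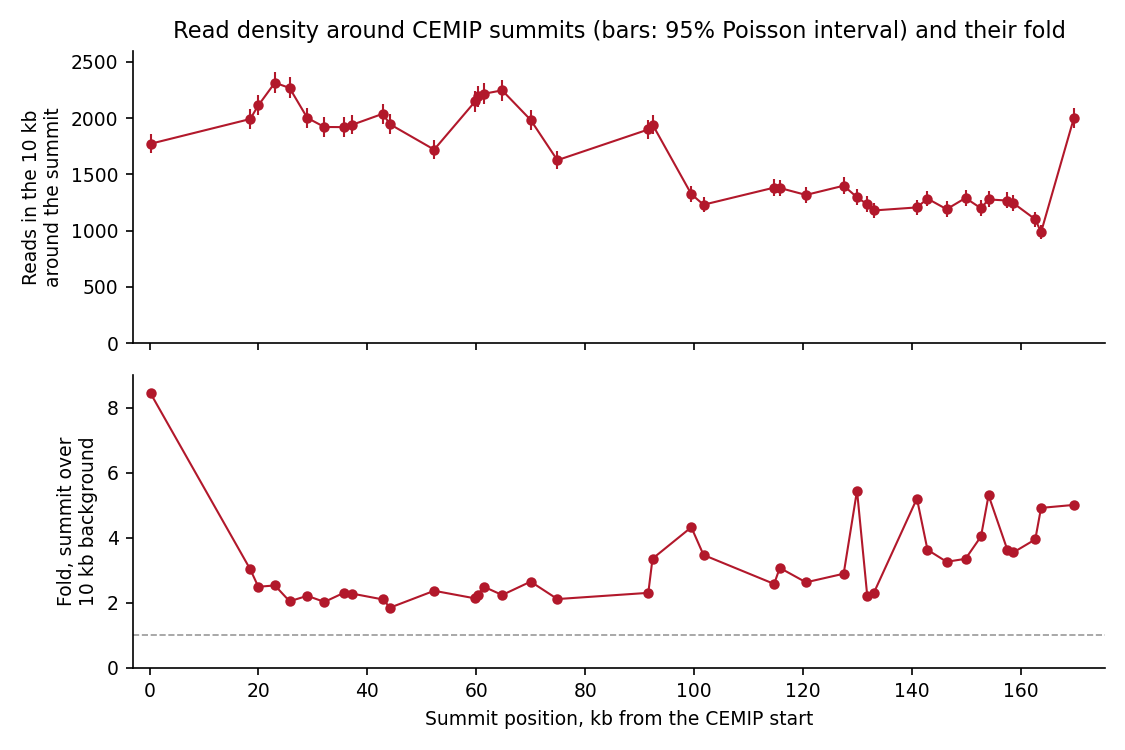
Reads of the plus strand in the 10 kb around each CEMIP summit (upper panel, bars are 95% Poisson intervals) and the authors' fold (lower panel, dashed line at a fold of 1), against the summit position in kb from the gene start. The density lies between 1627 and 2316 reads before the midpoint and mostly at or under 1400 beyond it, while the fold is mostly under 3 before the midpoint and reaches 5.46 beyond it.

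Folds ran the other way. Leaving out the first and the last peak, the fold before the midpoint was 1.85 to 3.03, with a median of 2.25 over 17 peaks, and beyond it 2.22 to 5.46, with a median of 3.47 over 21 peaks. The depths of the summits did not follow this order, with medians of 93.0 and 90.0 reads on the same peaks. As a description of these 38 peaks, Spearman's rho with the position along the gene was -0.87 for the 10 kb density, 0.71 for the fold and -0.04 for the summit reads. The fold contains the density as its denominator, and neighbouring windows share reads. A pair of peaks shows what the fold holds: the peak at 80878718 to 80878964 had 118 reads and a fold of 4.33, and the peak at 80802208 to 80802618 had 119 reads and a fold of 2.54. Their summits were alike in depth, and the 10 kb around the first held 1325 reads, against 2316 around the other.

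In 10 equal steps of 17.2 kb from the start, CEMIP held 1, 6, 4, 5, 2, 4, 2, 5, 6 and 5 peaks, so none of these steps was without one. The median summit depth lay between 71.0 and 103.5 reads in every step after the first.

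CEMIP combined a high read density with low folds over a long span. Its folds had a median of 2.64 and quartiles of 2.28 and 3.64, and 22 of the 40 peaks (55.0%) had a fold under 3. Among peaks of other coding genes the fold had a median of 5.93 and quartiles of 4.78 and 7.65, and 412 of 19230 (2.14%) had a fold under 3. The summits of CEMIP were nevertheless deep, with a median of 92 reads, against 22 in other coding genes. In 39 of the 40 CEMIP windows the background itself was 22 reads or more per 200 bases, the median summit depth elsewhere. A summit of that depth would not have risen above the background there. Conversely, at a low background a fold under 3 means few reads, which may be too few for a peak to be listed. The shares with a fold under 3 are thus not compared at like density. Over the peaks of other coding genes, Spearman's rho of the fold with the 10 kb density was -0.39.

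Within the same range of density the medians lay closer together. In other coding genes, 435 peaks in 151 genes had between 986 and 2316 reads in their 10 kb, as CEMIP did. Their folds had a median of 4.04 and quartiles of 2.96 and 5.80, and their summits a median of 108 reads. The folds of CEMIP overlap with theirs, which reached from 1.84 to 48.8. Density was not matched within the range, and it is the denominator of the fold. In the genes with the most of these peaks, its median was 1293 reads in MYH9, 1101 in ADGRB1 and 1398 in CCND1. It was 1683 in FAT1, 1916 in MLEC and 1214 in RBCK1, against 1674 over all CEMIP peaks. The CEMIP peaks were selected by the number of peaks in their gene, and this comparison was not tested.

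**Figure D3:**
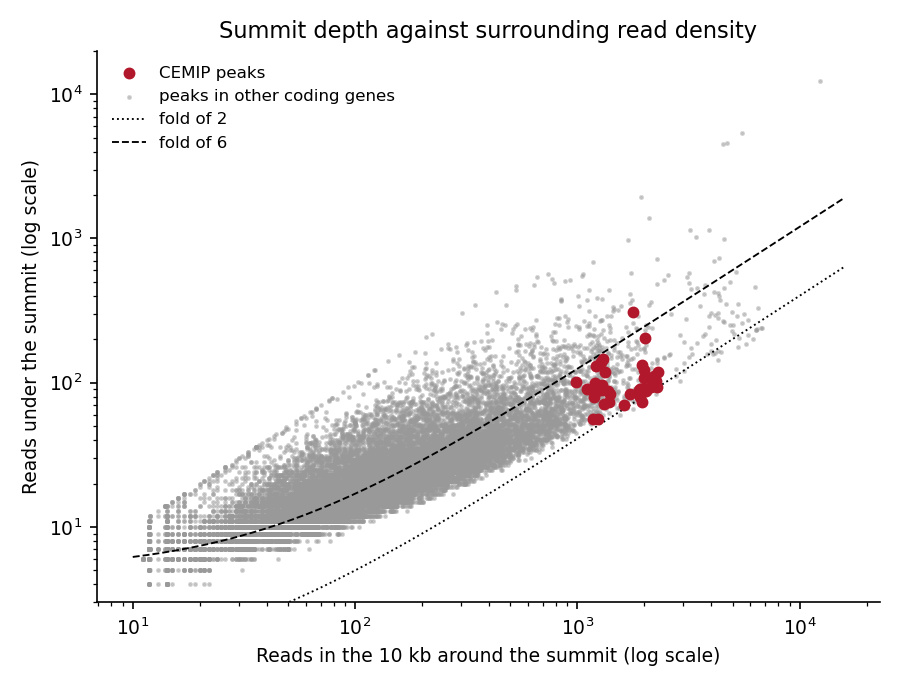
Reads under the summit against reads in the surrounding 10 kb (both log scales) for the CEMIP peaks (red) and for peaks of other coding genes (grey), with lines at folds of 2 and 6. The CEMIP peaks form a group at 986 to 2316 reads in 10 kb. They lie mostly between the lines of folds of 2 and 6, at lower folds than the bulk of the other peaks.

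Only 0.584% of coding genes, 117 of 20037, held 10 or more peaks. Among these 117, CEMIP had the third lowest median fold and ranked 6 by median density and 9 by median summit depth. Its 2.32 peaks per 10 kb ranked 20, against a median of 1.16. ONECUT3 (2.30) and PLEC (2.34) were the genes with lower median folds, and their spans of 27483 and 61593 bases are much shorter. The genes with a higher median density were ONECUT3, TNS4, PLEC, PYGB and SLC9A3, none with a span over 61593 bases. CEMIP is thus the longest of the 6 genes with the densest reads in this set. Low folds also occurred over longer spans, at a lower density than in CEMIP. AGAP1, of 637751 bases, had 24 peaks at a median fold of 2.998 and a median density of 740 reads. ANKRD11, of 222932 bases, had 22 peaks at a median fold of 3.16 and a median density of 643.5 reads. Over the 117 genes the median of these folds was 5.84. Of 938 other coding genes 0.8 to 1.2 times as long as CEMIP, 506 (53.9%) held a peak. They had a median of 1 peak, and the highest number was 29.

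HUWE1, for a ubiquitin ligase, DYNC1H1, for the dynein heavy chain, and MYH9 are other long genes with all their peaks on a single strand. CEMIP had 40 peaks with a median fold of 2.64, HUWE1 had 29 at 6.06, DYNC1H1 25 at 5.50 and MYH9 24 at 6.24. The median 10 kb density was 1674 reads in CEMIP, 221 in HUWE1, 532 in DYNC1H1 and 1067 in MYH9. Median summit depth was 92 reads in CEMIP, 35 in HUWE1, 61 in DYNC1H1 and 127.5 in MYH9. MYH9 therefore had deeper summits than CEMIP on a thinner background. The deepest summit was 307 reads in CEMIP, 62 in HUWE1, 106 in DYNC1H1 and 205 in MYH9.

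**Figure D4:**
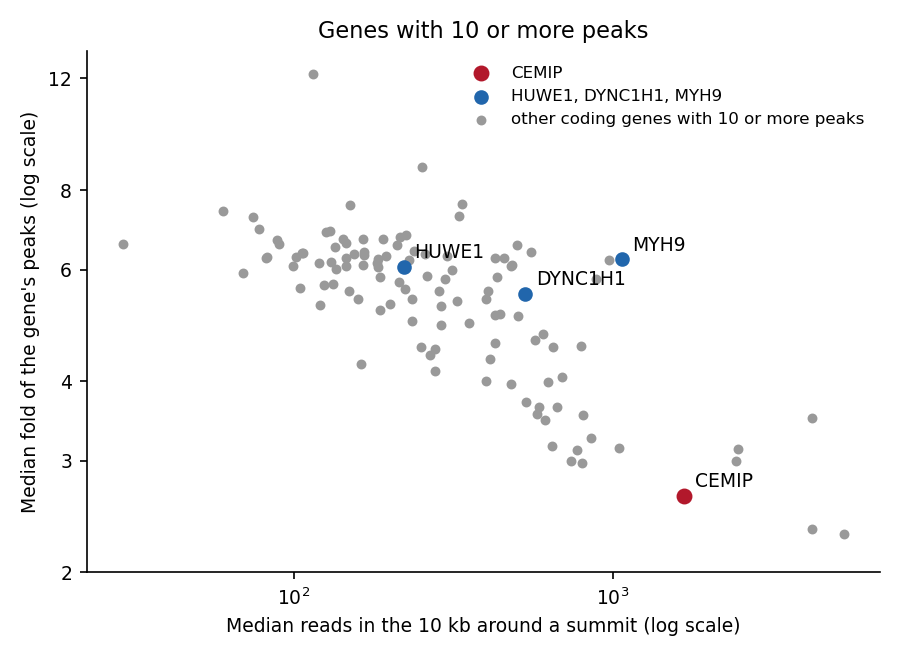
Median fold of the peaks of a gene against the median reads in the 10 kb around its summits (both log scales), for the 117 coding genes with 10 or more peaks. CEMIP (red, 1674 reads and a fold of 2.64) lies at the lower right, below HUWE1, DYNC1H1 and MYH9 (blue), whose median folds are 5.50 to 6.24.

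The 5 genes whose peak profile was most like that of CEMIP were PYGB, LOC128462377, ANKRD11, ABHD2 and RNF43. Likeness was the distance over 4 measures on the log2 scale, each divided by its SD over the 117 genes of this list: peaks per 10 kb, median fold, median summit reads and median width. PYGB, which codes for a glycogen phosphorylase, was nearest, at a distance of 1.28. It had 13 peaks with a median fold of 3.13 and a median of 151 reads. LOC128462377 and ANKRD11, a chromatin regulator gene, followed at 1.49 and 1.67, and they overlap and share peaks: none of the 10 peaks of LOC128462377 lay in that gene alone. ABHD2 was at 1.96 and RNF43, for a ubiquitin ligase that dampens Wnt signalling, at 2.00.

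The deepest summits of other hyaluronan genes held fewer reads than that of CEMIP. That they also had fewer peaks follows from the choice of CEMIP as the gene with the most. A list of 39 hyaluronan genes, CEMIP included, held 13 genes with a peak (33.3%, Wilson interval 20.6 to 49.0%), against 41.6% of coding genes. Without CEMIP these were 12 of 38 (31.6%). A share near that of all coding genes is not a result about the list. The peaks of 10 of the 13 genes were on the strand of the gene. In STAB1 and BCAN they were only on the opposite strand, and for HEXA the strand was not given in the tables used here. The median of the deepest summits over the 13 genes was 29.0 reads, against 22 over all coding genes with a peak.

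None of the 3 hyaluronan synthase genes, HAS1, HAS2 and HAS3, held a peak. UGDH, whose enzyme makes the UDP-glucuronate that the synthases use, had 4 peaks, the deepest with 29 reads (19.4 to 41.6) at a fold of 14.3, from base 4 of the gene. UGP2, a step earlier in that supply, had 1 peak of 11 reads. UXS1, which draws on the same UDP-glucuronate, held none. A gene without a peak may have little RNA or too few reads, so its absence from the list is no measurement of binding.

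Among receptors and binding proteins, CD44 had the most reads. It held 10 peaks, all on its strand. Its deepest summit, in the peak that reaches into the start window shown above, had 115 reads (94.9 to 138) at a fold of 15.8. The 10 kb around that summit held 318 reads, so CD44 reached a higher fold than any CEMIP peak on a background below that of every CEMIP peak. HMMR, the receptor for hyaluronan-mediated motility, had 2 peaks, the deepest with 6 reads (2.20 to 13.1). HABP4 had 1 peak of 23 reads, and VCAN, for the matrix proteoglycan versican, 3 peaks of at most 11 reads. LAYN, LYVE1, STAB2, TLR2, TLR4, HABP2, TNFAIP6, PTX3, ACAN, NCAN, the link protein genes HAPLN1 to HAPLN4 and the inter-alpha-trypsin inhibitor genes ITIH1 to ITIH4 held none. The opposite-strand peak in STAB1 also lay in NT5DC2, and the deepest in BCAN, with 42 reads at a fold of 2.74, lay in no other gene of the table.

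Of the genes that break hyaluronan down, CEMIP2 came nearest to CEMIP in number, with 8 peaks. The deepest CEMIP2 summit had 32 reads (21.9 to 45.2) at a fold of 5.06, against 307 reads in CEMIP, and the 10 kb around it held 276. HYAL2, a hyaluronidase held at the cell surface, had 2 peaks of at most 25 reads. HYAL1, HYAL3, HYAL4 and SPAM1 held none. GUSB and HEXA, for lysosomal enzymes that act on the fragments, had peaks too: GUSB reached 36 reads at a fold of 10.5 and HEXA 23 reads at a fold of 11.4.

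Genes whose proteins are reported to bind or act with CEMIP were a short list of 6, of which 5 held a peak (83.3%, Wilson interval 43.6 to 97.0%), all on the strand of the gene, against 41.6% of all coding genes. HSPA5, the endoplasmic reticulum chaperone BiP, had 158 reads (134 to 185) at a fold of 10.6. The calcium channel gene ITPR3 had 9 peaks and up to 71 reads, and CLTC, for the clathrin heavy chain, 8 peaks and up to 54 reads. EGFR had 4 peaks of at most 23 reads and PHKB 3 of at most 14. PLXNA2 held none. The intervals of all 5 lie below the 274 reads at which that of the first CEMIP peak begins.

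**Figure D5:**
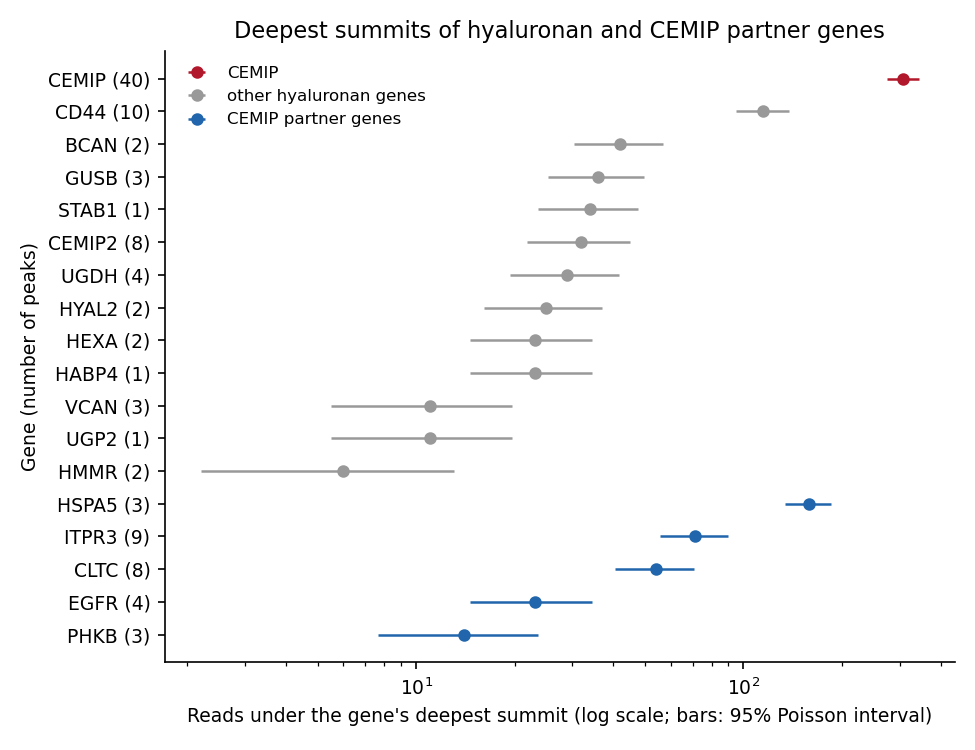
Reads under the deepest summit (points on a log scale, bars are 95% Poisson intervals) for CEMIP, the other hyaluronan genes and the CEMIP partner genes that held a peak, with the number of peaks in brackets. CEMIP, at 307 reads, lies above HSPA5 at 158 and CD44 at 115, and the intervals do not overlap with that of CEMIP.

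Reads were sparser in the genes around CEMIP than in CEMIP itself. Within 200 kb on either side, 11 further peaks lay in 3 genes. ABHD17C, 23749 bases before CEMIP and on the same strand, had 5 peaks of 30 to 88 reads, and the nearest lay 24411 bases before the CEMIP start. Beyond the end, the nearest peak, 27187 bases away, was in MESD, and TLNRD1 had 4 peaks of 28 to 50 reads. The 10 kb around these 11 summits held 81 to 614 reads, all below the 986 of the sparsest CEMIP window. ARNT2 and CFAP161, the other named coding genes that reach into this stretch, held no peak.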

How the data were processed

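The series holds 3 eCLIP libraries of LS174T cells, and 1 deposited peak list was analysed here. Per the submitters' processing notes the tools were cutadapt, BWA and MACS2 with the hg38 build, and versions and settings are not given in the sources used here. Whether the list pools both immunoprecipitate libraries is not given either. In each of the 21031 peaks the score, as deposited, was 10 times the −log10 q without its decimals. The authors deposited −log10 p, −log10 q and fold as the caller gave them for the summit, and the lowest −log10 q was 1.3066.

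Reads k and background b were solved from fold = (k + 1)/(b + 1) and from the −log10 p, taken as the upper Poisson tail beyond k. In 21028 peaks a whole k gave that value to within 0.0001, with 1e-05 of its size added. On 1000 simulated peaks, 999 were recovered. These were made with the same formula and mostly at backgrounds below those of CEMIP, so they check the solving only. Genes were assigned by peak centre on chromosomes 1 to 22, X and Y with RefSeq GRCh38.p14 spans, and strands came from its start windows and, for a microRNA, its microRNA table. Exons and sequence under the peaks were not used here. Python 3.11.15, numpy 2.4.6, scipy 1.17.1 and pandas 2.3.3 were used. Depth of single libraries is unknown, and recovered reads carry the only precision given.

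No test was made, since there is 1 list. The gene, lists, comparison genes and likeness rule were chosen with earlier results of these data known. The named genes were CEMIP, genes within 200 kb, all list members, HUWE1, DYNC1H1, MYH9 and the 5 most alike, with the 4 deepest members of a marker list and those without a peak where few. From the hyaluronan list as first fixed, 1 gene is not reported here and is in none of its counts. Genes named for a lower fold, a higher density or low folds over a longer span than CEMIP were chosen after their values were seen. The 9 alternatives tried concern the overlap rule, overlapping genes, the −log10 q threshold, merging and narrow peaks.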

Additional observations from a re-analysis of the deposited data

How the results depend on the processing

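Of 70 recomputed values, 63 stayed within 1.5 times the reported count or within its 95% interval, which for the medians is the binomial interval of ranks. These intervals treat peaks, reads and bases as independent, which neighbouring ones are not. The rule is wide for counts, since a fall from 40 to 27 peaks counts as staying. With only peaks at or above the list's median −log10 q, CEMIP had 27 peaks and ranked 2, its 5 deepest summits held 30.1% of its summit reads and its peaks covered 6.59% of the span. Without peaks at most 2 bases wider than the narrowest these shares were 25.4% and 8.03%. The covered share was 8.49% at a −log10 q of 5 or more and 6.92% with peaks in no other gene. In each case fewer peaks were counted. Over all alternatives CEMIP had 27 to 40 peaks, a median fold of 2.64 to 3.36 and a median depth of 91 to 101 reads, the hyaluronan list had 10 to 14 genes with a peak and the partner list 4 to 5. No paired analysis was possible because no value belongs to a single library. The 10 kb density limits which summits could be listed in CEMIP: its shallowest listed summit held 56 reads.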

Other observations

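Other coding genes also had reads as dense as those of CEMIP, at median folds that differed among them. Of 8329 coding genes with a peak, 104 had a median of 1000 or more reads in the 10 kb around their summits, and CEMIP ranked 30. Among the 151 other coding genes with peaks in the density range of CEMIP, MYH9 had 14 such peaks at a median fold of 5.55, ADGRB1, for an adhesion G protein-coupled receptor, had 12 at a median fold of 3.14, and CCND1, for cyclin D1, had 9 at a median fold of 4.04. The atypical cadherin gene FAT1 and MLEC, for the endoplasmic reticulum lectin malectin, had 8 each, at median folds of 3.46 in FAT1 and 2.59 in MLEC, as did the ubiquitin ligase gene RBCK1, at 5.37. These genes were chosen after their values were seen, as those with the most peaks in this range.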
